A study of Mus musculus with 12 samples.

Results

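The 42 genes described here encode proteins of the cytosolic ribosome, 22 of the large (60S) subunit and 20 of the small (40S) subunit. They are the genes whose symbol is Rpl or Rps followed by a number and at most one letter a or x, together with Rplp0, Rplp1, Rplp2 and Rpsa, where a probe set carried that symbol alone. A probe set is the group of short oligonucleotides on the array that measures 1 transcript. The 42 genes are among 18193 genes named on the array by a probe set with 1 symbol. They had 94 probe sets, and the probe set with the highest mean stood for its gene. Of the 42, 41 passed the filter on dim probe sets (a mean over the arrays above 5.10 log2 units) and were tested among 12918 genes. Rps16, a small-subunit protein, did not pass, with its single probe set at a mean of 3.90.

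The cells were primitive progenitors from mouse bone marrow, sorted for c-Kit and Sca-1 and against lineage markers and Flt3, kept for 24 h with stem cell factor and interleukin 6, exposed to retrovirus for 4 h and sorted for green fluorescence 20 h later. The 5 MIB control arrays (replicates 3 to 7) are of cells given the vector alone. The 4 INV16 arrays (replicates 1 to 4) are of cells given a fusion of CBFB, the partner of RUNX proteins in core binding factor, to the smooth muscle myosin MYH11, a fusion that an inversion creates in acute myeloid leukaemia. The 3 ACD mutant arrays (replicates 1 to 3) are of cells given the same fusion without its assembly competent domain, a form the design text calls non-leukemogenic. Every group thus shares the culture, the viral backbone and the fluorescence gate, and the fusions came from a vector and not from the chromosomal inversion. The comparisons ask how the fusion, with and without that domain, altered expression in these progenitors.

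Each ribosome holds 1 copy of nearly every ribosomal protein, so cells make these proteins in matched amounts, and their messenger RNAs are among the most abundant in growing cells. Most of these transcripts start with a cytosine and a run of pyrimidines, the terminal oligopyrimidine (TOP) tract, through which mTOR and LARP1 control their translation. Blood formation is sensitive to their dose: loss of 1 copy of genes such as RPS19 causes Diamond-Blackfan anaemia, and loss of RPS14 contributes to the anaemia of the 5q- syndrome.

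Start-site sequences were taken from RefSeq (GRCm38.p6) for 37 of the 42 genes. Printed are 30 bases before the annotated start and 20 from it, 5′ to 3′ on the gene's strand, with the first 5 transcribed bases in capitals. Rpl12, Rps25, Rpl27a and Rpl14 are shown because the largest differences described below are theirs, and Rpl35, Rpl38 and Rps18 as members that begin with the TOP letters.
Rpl12, chr2:32961682-32961731, plus strand: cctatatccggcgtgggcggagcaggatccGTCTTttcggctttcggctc
Rps25, chr9:44407684-44407733, plus strand: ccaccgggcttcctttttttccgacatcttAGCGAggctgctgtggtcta
Rpl27a, chr7:109519165-109519214, plus strand: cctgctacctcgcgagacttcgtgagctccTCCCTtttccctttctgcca
Rpl14, chr9:120571487-120571536, plus strand: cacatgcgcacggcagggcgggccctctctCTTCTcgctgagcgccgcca
Rpl35, chr2:39005112-39005161, minus strand: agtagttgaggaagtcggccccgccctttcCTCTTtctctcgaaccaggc
Rpl38, chr11:114668550-114668599, plus strand: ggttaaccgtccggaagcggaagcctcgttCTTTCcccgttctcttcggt
Rps18, chr17:33955646-33955695, minus strand: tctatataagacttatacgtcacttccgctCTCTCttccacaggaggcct

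A C followed by 4 pyrimidines stood exactly at an annotated start in 8 of the 37 genes (21.6%), against 3.04% of all genes tested that have a window. Within 5 bases of the start it stood in 18 of 37 (48.6%), against 23.9%. The letters TGTGGT, the core that RUNX proteins bind together with CBFB, were looked for on both strands in the 250 bases before and 50 after the start. They occurred in 3 of 37 genes (8.11%), Rpl6, Rps2 and Rps25, against 15.5% of all genes tested. In Rps25 they lie within the printed bases after the start. The ETS-type letters CCGGAAG, on either strand, occurred in 18 of 37 (48.6%) against 18.95%, and TATAA, also on either strand, in 12 of 37 (32.4%) against 16.7%. A match describes the letters of the window, and the arrays did not measure binding.

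Most of these genes sat at the top of the measured range. The median level of the 41 tested members was 13.91 log2 units, against 8.09 for all genes tested. 33 members lay above 13 and 8 below 11, with 0 in between. The members made up 19.2% of the 172 genes above 13 log2 units and 0.317% of all genes tested. The highest means were those of Rpsa (14.55), which carries the laminin receptor name and lies in the small subunit, Rpl41 (14.44), Rps3 (14.42) and Rps2 (14.42). The lowest after Rps16 were Rps27 (6.92), Rpl39 (7.21) and Rpl27a (8.24). Brightness differs between probe sets for the same amount of RNA, so this order is one of probe sets and not of transcripts.

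**Figure D1:**
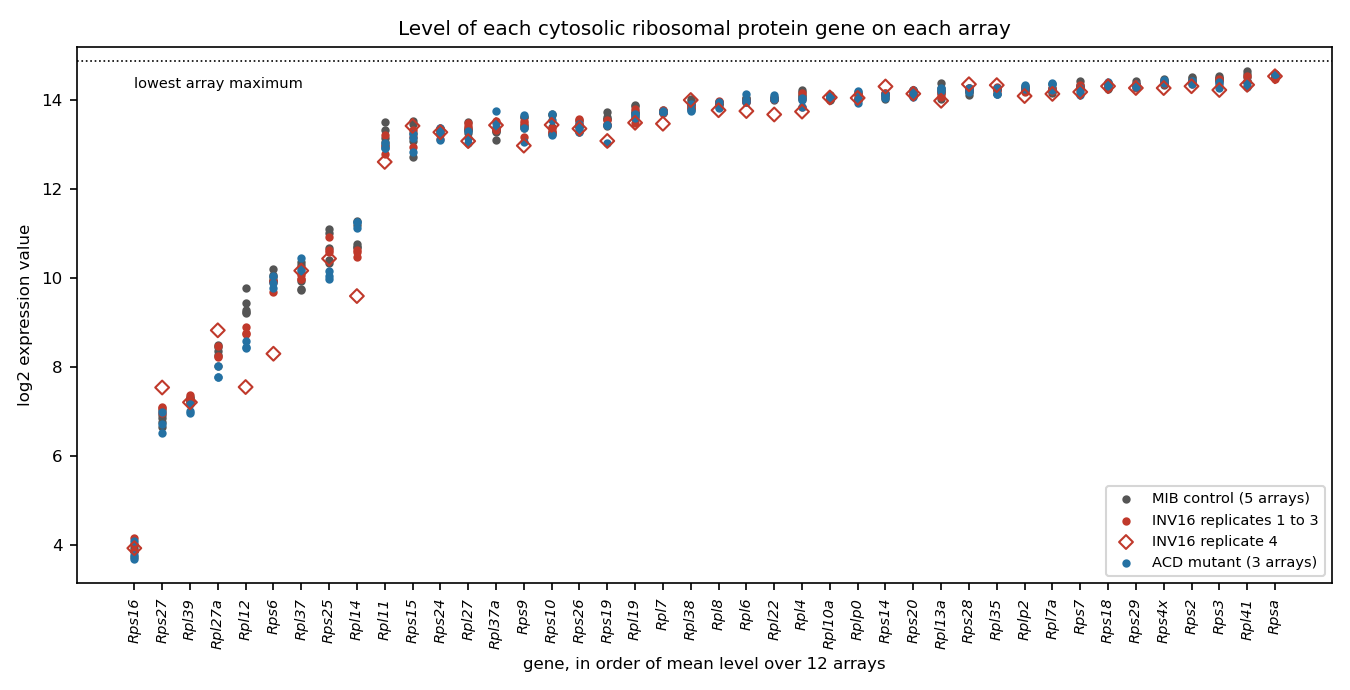
The log2 expression value (vertical axis) of each of the 42 genes (horizontal axis, in order of the mean over 12 arrays) on each array, with MIB control in grey, INV16 replicates 1 to 3 in red, ACD mutant in blue and INV16 replicate 4 as open diamonds. The 33 genes above 13 log2 units lie close under the dotted line, the lowest of the array maxima (14.87), while 9 genes lie below 11.

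Every dim member also appears on brighter probe sets that could not be assigned. All 9 members below 11, Rps16 included, share 24 further probe sets with at least 1 other symbol. The brightest such set of each gene lay at a median of 14.03, and at no less than 13.34 for any of the 9. Of the 33 bright members, 6 appear on such sets. For Rpl12 there were 2, at 13.30 and 13.64. Which of the symbols such a set measures cannot be told apart.

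Bright members also varied little. The median within-group SD of members between 13 and 14 log2 units was 0.0995 (n = 14), close to the 0.0987 of all 141 genes at that level. Above 14 it was 0.0498 (n = 19 members) against 0.0559 for all 31 genes. Genes between 9 and 11 log2 units had a median SD of 0.188. On each array 18 to 23 members lay within 1 log2 unit of the array's highest value, which was 14.87 to 14.97. The table holds no saturation flags, so whether these values are compressed at the top of the scanner's range was not tested, and a difference among them may be understated.

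Some arrays stood apart. INV16 replicate 4 correlated at 0.895 to 0.917 with the other arrays, which correlated at 0.985 to 0.996 with each other, and it was kept out of the group means. On it the mast-cell and basophil marker list summed to 16.14 log2 units against 12.26 to 13.32 on the others, and the neutrophil list to 11.17 against 14.60 to 15.52. The list of sorted progenitor markers, with 9 of 9 genes past the filter, summed to 12.60 there and to 13.72 to 14.29 on the others. Of 7 erythroid markers, 6 lay above all other arrays on INV16 replicate 4 and 1 below. Of 9 neutrophil markers, 3 lay below all others, 5 within their range and 1 above. Of the 9 progenitor markers, 7 lay below, 1 within and 1 above. These counts stand beside 34.3% of all genes tested above all other arrays on it and 38.8% below. They include markers that did not pass the filter: 4 of the 7 erythroid and 8 of the 9 neutrophil markers passed. The difference between the 3' and 5' Gapdh controls was 3.64 on INV16 replicate 4, 3.17 on ACD mutant replicate 1 and 1.10 to 1.98 on the other arrays. The difference between 2 bacterial spike-ins, BioC and BioB, split the arrays into batch A (INV16 replicates 1 to 3 with MIB control replicates 3 to 5) and batch B (the ACD mutant, INV16 replicate 4 and MIB control replicates 6 and 7). INV16 and the ACD mutant therefore share no batch once replicate 4 is set aside. In such bulk samples fewer cells of a type and less RNA per cell cannot be told apart.

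Most ribosomal protein genes stayed within a narrow band around the empty vector in INV16 cells. In 11 arrays, 1 of 41 members passed the test against MIB control (limma, Benjamini-Hochberg adjusted p under 0.05 over all genes), the large-subunit gene Rpl12, which was lower. That is read against 1.7% of all genes tested (219 of 12918), 1.07% lower and 0.627% higher. Differences between group means, as log2 fold changes, ran from -0.58 to 0.20 over the members, with 27 of 41 below 0 and a median of -0.02, against -0.03 for all genes. At an unadjusted p under 0.05 there were 2 of 41 members and 15.8% of all genes. The 33 bright members differed by -0.21 to 0.12, at most a 1.16-fold change, and their 95% confidence intervals reached from -0.49 to 0.36. The arrays of INV16 and MIB control did not overlap for 3 members that were lower (Rpl12, Rpl14 and Rps6) and 0 that were higher, against 5.98% and 3.27% of all genes.

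The ACD mutant differed from MIB control in the same single member. Rpl12 was lower (1 of 41 members called, against 1.7% of all genes or 220 of 12918, 0.712% lower and 0.991% higher). Log2 fold changes ran from -0.91 to 0.28, with a median of -0.05, against 0.01 for all genes. At an unadjusted p under 0.05 there were 6 of 41 members, against 19.5% of all genes. The 33 bright members differed by -0.28 to 0.26, with intervals from -0.53 to 0.49. Groups did not overlap for 7 members that were lower (Rpl12, Rps25, Rpl27a, Rpl39, Rpl19, Rps7 and Rps3) and 1 that was higher (Rpl37a), against 5.84% and 6.93% of all genes. Both comparisons use the same MIB control arrays.

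Between the 2 fusions 0 of 41 members passed the test, against 2.07% of all genes (267 of 12918). At an unadjusted p under 0.05 limma gave 7 of 41 members, against 19% of all genes. The log2 fold changes of INV16 over the ACD mutant ran from -0.64 to 0.64, with a median of 0.02, against -0.02 for all genes. The groups did not overlap for 8 members higher in INV16 and 4 lower, against 9.44% and 19.2% of all genes. With all 12 arrays in the fit, 0 of 41 members passed in any of the 3 comparisons. All genes then gave 20 calls for INV16 against MIB control (0.155%), 0 for the ACD mutant against MIB control (892 at an unadjusted p under 0.05) and 5 for INV16 against the ACD mutant (0.0387%). At an unadjusted p under 0.05 the 12-array limma fit gave 3, 5 and 4 members, against 15.1%, 6.91% and 12.4% of all genes.

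**Figure D2:**
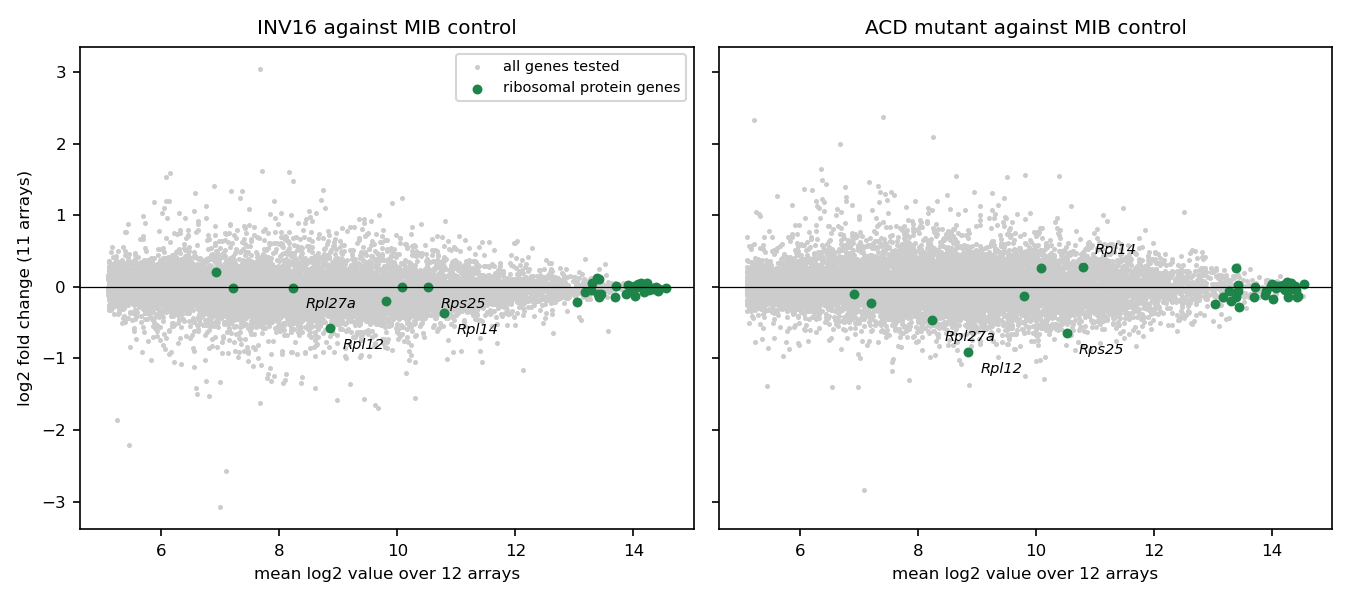
Log2 fold change over 11 arrays (vertical axis) against the mean log2 value over 12 arrays (horizontal axis) for all 12918 genes tested (grey) and the 41 ribosomal protein genes (green), for INV16 (left) and the ACD mutant (right) against MIB control. The 33 bright members form a flat band within 0.28 of zero, and the named genes that leave it lie below 11 log2 units.

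Rpl12 encodes a large-subunit protein at the base of the stalk to which translation factors bind. Its probe set read 9.44, 9.22, 9.77, 9.28 and 9.20 on MIB control replicates 3 to 7. It read 8.89, 8.77 and 8.75 on INV16 replicates 1 to 3, and 7.54 on replicate 4. The ACD mutant arrays read 8.43, 8.42 and 8.57. All 5 controls were above all INV16 arrays, and the 3 INV16 arrays were above all ACD mutant arrays.

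Against MIB control Rpl12 was lower by 1.49-fold in INV16 (log2 fold change -0.58, SE 0.13, 95% interval -0.85 to -0.30, limma adjusted p = 0.0393). In the ACD mutant it was lower by 1.87-fold (-0.91, SE 0.13, limma adjusted p = 0.0150). The difference between the 2 fusions, 0.33, did not pass (limma adjusted p = 0.234), and with all 12 arrays it was 0.01. These 2 groups share no batch on the 11 arrays. Within MIB control Rpl12 averaged 9.47 in batch A and 9.24 in batch B, so a step between the fusions cannot be told apart from the batch. The INV16 call was not stable: of 22 settings tried it passed in 7, with adjusted p from 0.0316 to 0.375, and of the 11 fits without 1 array it passed in 2, those without MIB control replicate 4 or 7. The ACD mutant call passed in 17 of the 22, with adjusted p from 0.00495 to 0.456, and was lost without ACD mutant replicate 1 (0.0880) or 2 (0.0821). Its sign was negative in all 22 settings of both comparisons.

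Within batch A the INV16 difference in Rpl12 was -0.67 (limma adjusted p = 0.125), and within batch B the ACD mutant difference was -0.77 (0.0429). A block for the batch gave -0.67 (0.0321) and -0.77 (0.0695). The 2 brighter probe sets that carry Rpl12 with other symbols, and are assigned to no gene here, differed by -0.05 and -0.03 in INV16 and by -0.31 and -0.15 in the ACD mutant.

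Rps25, a small-subunit protein that some viral internal ribosome entry sites require, was lower in the ACD mutant without passing the test. MIB control replicates 3 to 7 read 10.68, 11.10, 11.01, 10.34 and 10.40. INV16 replicates 1 to 3 read 10.58, 10.62 and 10.91, and replicate 4 read 10.43. The ACD mutant arrays read 9.98, 10.15 and 10.05, below every other array. The difference from MIB control was -0.64 (SE 0.17, limma adjusted p = 0.0659), and INV16 stood 0.64 above the ACD mutant (0.0936). Those 2 groups share no batch, and MIB control averaged 10.93 in batch A and 10.37 in batch B. INV16 replicates 1 to 3, of batch A, averaged 10.70, also below the controls of their batch. Within batch B the difference of the ACD mutant from MIB control was -0.31 (0.173). It passed only in the fits without MIB control replicate 6 (0.0462) or 7 (0.0346), the controls of that batch. A set at 13.34 that carries Rps25 with other symbols differed by -0.19.

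Rpl27a, a large-subunit protein, gave a like order of groups. MIB control read 8.35, 8.02, 8.27, 8.45 and 8.48, INV16 replicates 1 to 3 read 8.24, 8.21 and 8.46, and the ACD mutant 8.01, 7.77 and 7.77. The lowest control, replicate 4, lay just above the highest ACD mutant array, and INV16 replicate 4 was the highest of all at 8.82. The difference of the ACD mutant from MIB control was -0.47 (SE 0.12, limma adjusted p = 0.0653) and -0.62 within batch B (0.0623). It passed without MIB control replicate 4 (0.0461). A set at 14.03 that carries Rpl27a with other symbols differed by -0.05.

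Rpl14, a large-subunit protein, differed between the batches within MIB control. MIB control read 10.76, 10.70 and 10.70 in batch A and 11.18 and 11.27 in batch B. INV16 replicates 1 to 3, of batch A, read 10.58, 10.62 and 10.48, and the ACD mutant, of batch B, read 11.25, 11.25 and 11.12. INV16 replicate 4, although of batch B, was the lowest of all arrays at 9.59. On the other 11 arrays the controls of each batch lay closer to the fusion arrays of that batch than to the other controls. INV16 was below the ACD mutant by 0.64 on the log2 scale (-0.64, SE 0.16, limma adjusted p = 0.0531). When the batch was a block, which links the 2 fusions only through the controls, that difference was -0.14 (0.738). Sets at 13.01 to 14.23 that carry Rpl14 with another symbol differed from MIB control by -0.11 to 0.05 in INV16. In the ACD mutant they differed by -0.26 to 0.05.

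**Figure D3:**
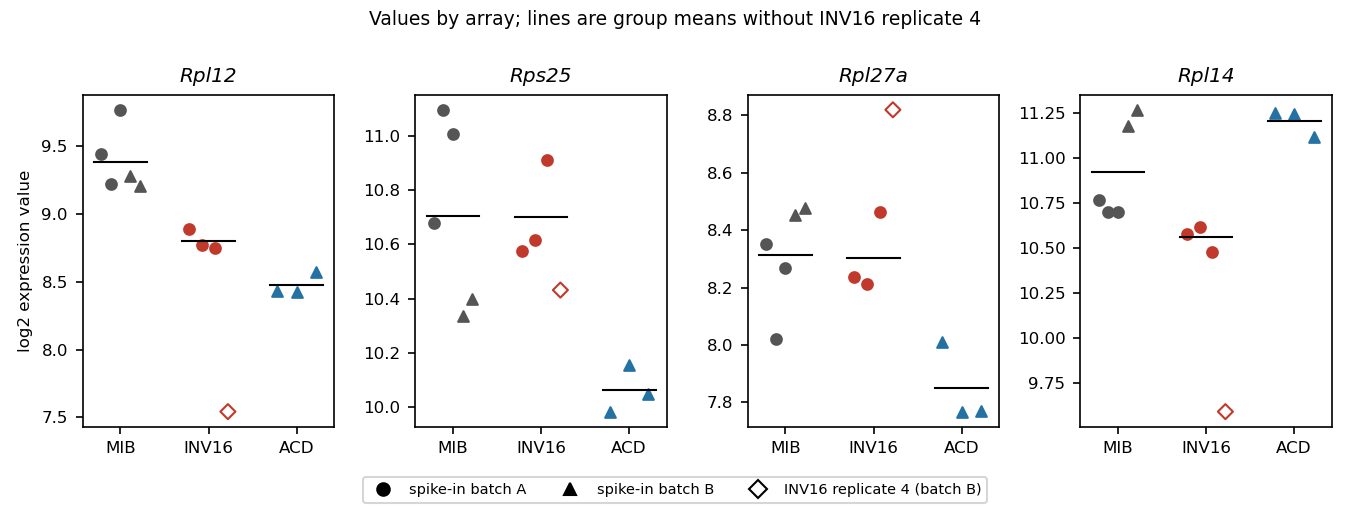
Log2 expression values (vertical axis, a scale for each panel) of Rpl12, Rps25, Rpl27a and Rpl14 on every array, by group, with circles for spike-in batch A, triangles for batch B, an open diamond for INV16 replicate 4 and a line for the group mean without it. Rpl12 steps down from MIB control over INV16 to the ACD mutant, while Rpl14 splits the controls by batch, at 10.72 and 11.23.

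That split reached further among the members. Within MIB control alone, 21 of 41 members were higher in batch B than in batch A without overlap (51.2%, against 22% of all genes), and 3 were lower (7.32%, against 17.0%). The shift was small for most: the median was 0.05 log2 units, against 0.02 for all genes. The largest of all was downward, in Rps25 (-0.56). The largest upward shifts were those of Rpl37 (0.52), Rpl14 (0.50), Rps15 (0.48), Rps10 (0.38) and Rpl11 (0.35). These are 3 arrays against 2, with no test. With the batch as a block the median member difference of the ACD mutant from MIB control was -0.07, that of INV16 went from -0.02 to 0.01, and the median of INV16 over the ACD mutant went from 0.02 to 0.09.

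Of 16 listed genes of Diamond-Blackfan anaemia and the 5q- syndrome, 11 were tested and 0 were called in any comparison with limma. At an unadjusted p under 0.05 there were 0 of 11 in INV16 against MIB control, 1 in the ACD mutant against MIB control and 2 between the fusions, against 15.8%, 19.5% and 19% of all genes. The list holds the largest differences among the 33 bright members in INV16 (Rpl11) and in the ACD mutant (Rps19), and the largest upward one of all members in INV16 (Rps27, 0.20). Its medians were -0.02, -0.06 and 0.05 in that order. Rps19, the gene most often mutated in the anaemia, read 13.73, 13.42, 13.58, 13.57 and 13.62 in MIB control. It read 13.46, 13.55 and 13.44 on INV16 replicates 1 to 3 and 13.04, 13.43 and 13.43 in the ACD mutant. The INV16 difference was -0.10 (limma adjusted p = 0.732) and the ACD mutant difference -0.28 (0.186), with ACD mutant replicate 1 the lowest of its group. Rps14 differed by 0.05 in INV16 and 0.01 in the ACD mutant, each with an SE of 0.08. Rpl11, which binds MDM2 when ribosome assembly fails, differed by -0.21 and -0.24 (limma adjusted p = 0.481 and 0.358), and by -0.45 within batch B (0.0965). Rpl27 was 0.26 higher in INV16 than in the ACD mutant without overlap (limma adjusted p = 0.212), 2 groups that share no batch. Of its 3 probe sets 2 were higher, and the dimmest, at 12.72, differed by -0.02.

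Genes with several probe sets gave a check on these small values. Of 18 members with at least 2 sets past the filter, the sets agreed in sign in 9 for INV16 against MIB control, 6 for the ACD mutant against MIB control and 5 between the fusions. The dimmest set moved further than the brightest in 14, 14 and 12 of the 18. The median range between a gene's sets was 0.17, 0.28 and 0.22 log2 units, larger than most of the differences between groups.

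Rpl37a, a small zinc-binding protein of the large subunit, disagreed most. Its brightest set, at 13.39, differed by 0.26 between the ACD mutant and MIB control (limma adjusted p = 0.204), its middle set, at 12.47, by -0.36, and its dimmest, at 8.65, by -0.84. With the dimmest set of every gene in the fit that last value passed (adjusted p = 0.0185), so the sign of the result turned with the probe set. Rps10 had 6 sets, which differed by between -0.57 and 0.17. The 6 sets of Rps24 gave differences from -0.02 to -0.59. The 4 sets of Rps20 spanned 0.70. ACD mutant replicate 1 had the second highest Gapdh 3' over 5' difference, and its part in these disagreements was not tested.

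**Figure D4:**
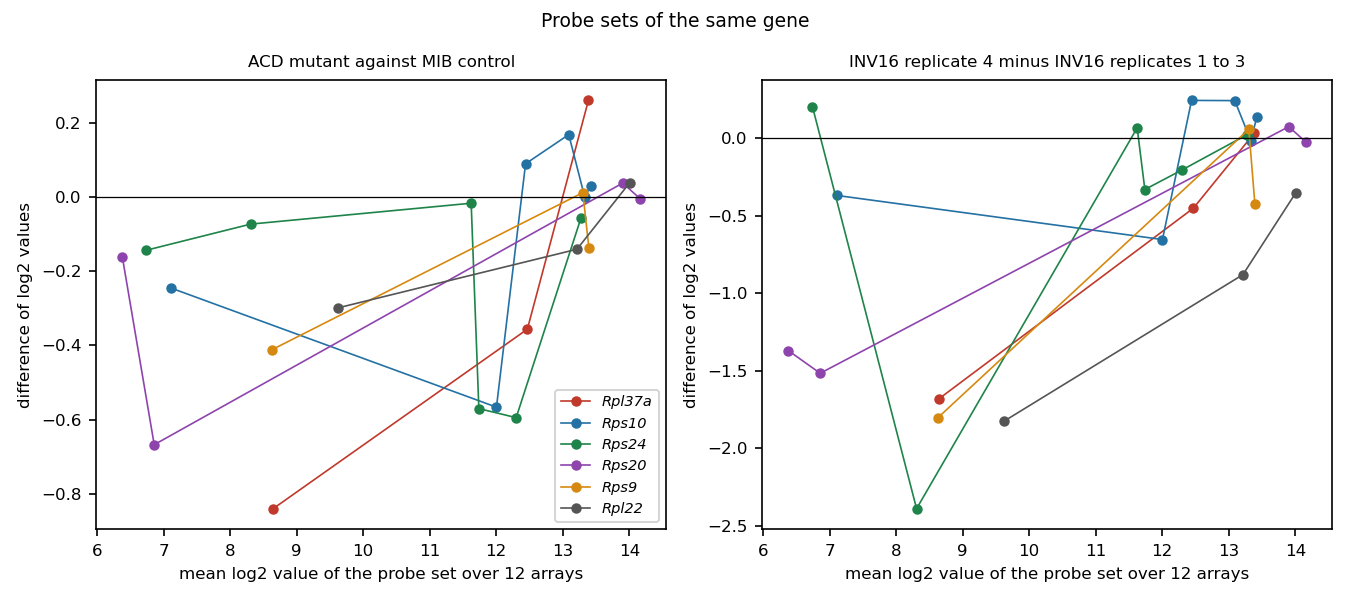
Difference of log2 values (vertical axis) for each probe set of 6 genes against the probe set's mean log2 value over 12 arrays (horizontal axis), for the ACD mutant against MIB control (left) and INV16 replicate 4 against INV16 replicates 1 to 3 (right), with lines joining the sets of a gene. The sets of Rpl37a fall from 0.26 to -0.84 as they get dimmer on the left, and those of Rpl22 from -0.35 to -1.83 on the right.

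On INV16 replicate 4 the median ribosomal protein gene lay near its level on the other INV16 arrays, while other gene groups of the ribosome pathway lay lower. Against the mean of replicates 1 to 3 the member median was -0.11, with a range from -1.54 to 0.52. For all 12918 genes tested it was -0.0009, at a median level of 8.09, and for the 172 genes above 13 log2 units -0.29. For 76 mitochondrial ribosomal protein genes it was -1.21, and for 31 genes of ribosomal RNA synthesis and assembly -1.34. Those 2 lists hold dimmer probe sets, with median levels of 10.4 and 10.6 against 13.9 for the members. The dimmest set of a gene deviated more than its brightest, up or down, in 13 of 18 members. The part of probe-set level was not tested. This is 1 array, so these are descriptions with no test. Of the members, 17 lay below all other 11 arrays (41.5%, against 38.8% of all genes) and 5 above all of them (12.2%, against 34.3%). Among large-subunit members 12 of 22 lay below, and among small-subunit members 5 of 19.

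The lowest deviations were those of Rps6 (-1.54), the substrate of S6 kinase, Rpl12 (-1.26), Rpl14 (-0.97), Rps9 (-0.43) and Rps19 (-0.41). The highest were those of Rpl27a (0.52), Rps27 (0.49), Rps15 (0.27), Rpl38 (0.17) and Rps14 (0.16). Rps6 read 8.29 on replicate 4 and 9.69 to 10.20 on the other 11 arrays. Its set is also a dim one, and 8 further sets that carry Rps6 with another symbol, at 10.16 to 14.72, deviated by -0.26 to 0.09. The 2 shared sets of Rpl12 deviated by -0.24 and 0.09. Those of Rpl14 deviated by -0.78, 0.09, 0.16, 0.11 and 0.12, that of Rpl27a by 0.08 and that of Rps27 by 0.42. Sets of 1 gene disagreed more here than in any comparison of groups: the median range was 0.85, and the largest, for Rps24, 2.59. Of 15 mast-cell and basophil markers, 12 were above all other arrays on this array, Cma1 among them (12.70, against 4.50 to 5.27 elsewhere), 1 was below them (Mcpt8, 5.35 against 9.39 to 10.24) and 2 lay within their range. Of these 15 markers 10 passed the filter, and the shares of all genes tested were 34.3% above and 38.8% below. The Gapdh 3' over 5' difference was also highest here. The part of the cell types and of the Gapdh difference in the members' deviations was not tested.

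**Figure D5:**
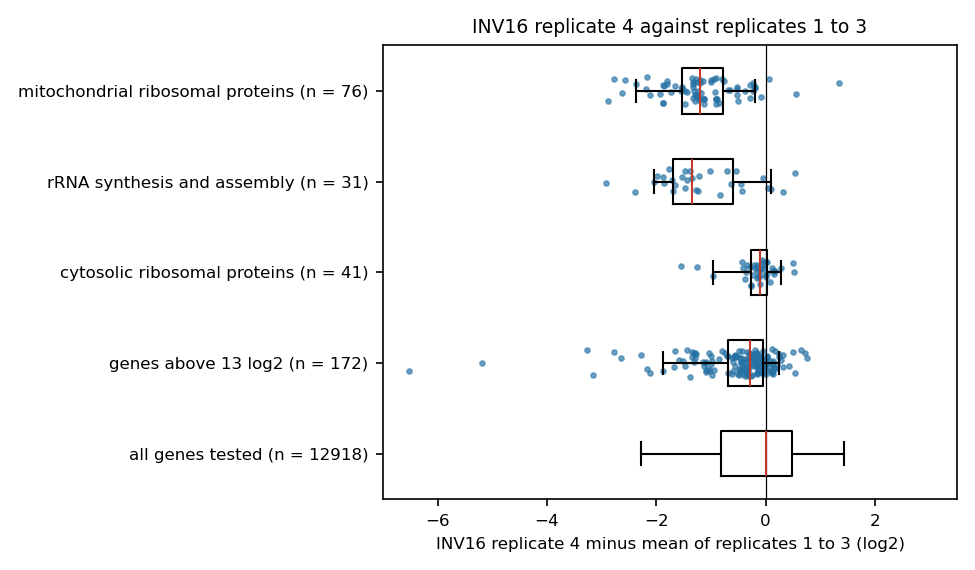
Deviation of INV16 replicate 4 from the mean of INV16 replicates 1 to 3 in log2 units (horizontal axis) for 5 overlapping groups of genes, with boxes for quartiles, a red line for the median, whiskers for the 5th and 95th percentiles and a point for each gene in groups under 200. The cytosolic ribosomal protein genes centre on -0.11, and the mitochondrial ones on -1.21.

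Other genes of translation gave few calls. Fau, whose product is a small-subunit protein fused to a ubiquitin-like domain, differed by -0.21 in INV16 (limma adjusted p = 0.632) and -0.48 in the ACD mutant (0.174). Of 5 tested paralogues of ribosomal proteins, 0 were called in any comparison with limma, and 0 had an unadjusted p under 0.05. Of 20 other genes with a TOP start, 1 was called, Vim, which encodes the filament protein vimentin and was 0.65 higher in INV16 than in MIB control (SE 0.15, limma adjusted p = 0.0461, and 0.113 with all 12 arrays). Of 31 genes of ribosomal RNA synthesis and assembly, 0 were called in any comparison with limma. At an unadjusted p under 0.05 there were 4 in INV16 against MIB control, 8 in the ACD mutant against MIB control and 3 between the fusions, against 15.8%, 19.5% and 19% of all genes. Their medians were -0.14, -0.13 and 0.01. Of 11 genes of ribosome-linked signalling, such as Myc and Mtor, 0 were called with limma in any comparison, and 4, 3 and 3 had an unadjusted p under 0.05, beside the same shares of all genes.

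Mitochondrial ribosomal proteins, which build the separate ribosome inside mitochondria, had calls in both directions in the ACD mutant. Most lay below MIB control with either fusion. Against MIB control 2 of 76 were higher and 4 lower, beside 0.991% and 0.712% of all genes. With limma 6 higher and 21 lower had an unadjusted p under 0.05, against 10.7% and 8.86% of all genes. Of the 76, 52 lay below 0, with a median of -0.16, against 0.01 for all genes. Mrpl44 (0.56, limma adjusted p = 0.0408) and Mrpl45 (0.52, 0.0391) rose. Mrpl55 (-0.75, 0.0427), Mrps18b (-0.67, 0.0458), Mrps21 (-0.53, 0.0479) and Mrps5 (-0.53, 0.0360) fell. Mrpl44 was also lower in INV16 than in the ACD mutant (-0.59, limma adjusted p = 0.0420). For INV16 against MIB control 0 of 76 were called, while 56 of 76 lay below 0, with a median of -0.10, against -0.03 for all genes. There 6 had an unadjusted p under 0.05 with limma, against 15.8% of all genes. With all 12 arrays in the fit the adjusted p of Mrpl44 was 0.432 against MIB control, a comparison in which 0 of all genes were then called.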

How the data were processed

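Expression was measured on Affymetrix mouse arrays, 1 for each of 12 samples, after 2-cycle amplification of the RNA per the labels' protocols. The deposited log2 values of 45101 probe sets were used as the authors gave them. Their background correction, normalisation and summary method are not given in the sources used here, and a log2 scale was inferred from their range (2.82 to 14.97). Gene symbols are those of the platform annotation. The 932 with several symbols, 9211 with none and 64 controls were left out of gene tests. Sets above the 40th percentile of means (5.10) were kept, with the highest-mean set for each gene.

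A limma model (version 3.58.1, R 4.3.3) with 1 mean per group was fitted to 12918 genes on 11 arrays, with INV16 replicate 4 apart, and p-values were Benjamini-Hochberg adjusted over all genes. All tests were two-sided. Tested on simulated data for INV16 against MIB control with 12918 genes, the script recovered 179 of 200 genes changed by 1 log2 unit, with 8 false calls. Replicates were separate sorts and transductions per the labels' design text, and their small number limits precision.

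The members and gene lists were chosen with earlier results of these data known. Lists covered Diamond-Blackfan anaemia and 5q genes, ribosomal proteins outside the symbol rule (here Fau), paralogues, TOP genes, mitochondrial ribosomal proteins, ribosomal RNA synthesis and assembly, signalling, and cell type markers. Named members were those called or with the 5 smallest p-values, the 3 largest changes each way, the 5 largest deviations each way on INV16 replicate 4, the 4 highest and 4 lowest levels, the 6 with the widest probe-set disagreement and the listed disease genes. Named genes of other lists were Fau and up to 4 called per comparison, except that all called mitochondrial ribosomal protein genes were named. Cma1, Mcpt8, Rpl8, Rpl19, Myc and Mtor were named outside this rule after their values were seen. Rpl6, Rpl22, Rpl35, Rps18 and the paralogues were also named outside it. Of 76 genes by the symbol rule in the RefSeq table, 27 were named only by 110 probe sets with several symbols and 7 by no probe set, and these were not analysed here. Alternatives were all 12 arrays, quantile normalisation, no filter or a stricter one (60th percentile), other probe sets per gene, 2 groups only, the spike-in batch as a block or within a batch, a replicate block and each array left out.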

Additional observations from a re-analysis of the deposited data

Results flagged for a closer look

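In 7 members 1 INV16 array lay far from the others of its group, counting all 4 arrays, with a gap to the nearest array that exceeded Dixon's 95% limit as a share of the group's range. Chance gives such a gap in about 1 in 20 groups. The INV16 group exceeded it in 20.7% of all genes tested and in 17.1% of members (7 of 41), and MIB control exceeded its own limit in 5.54% of all genes and 0 of 41 members.

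INV16 replicate 4 was the lowest array in 6 of the 7. For Rpl12 the gap was 0.893 of the range, with 7.54 against 8.75 to 8.89 on the other INV16 arrays. For Rpl14 it was 0.864, with 9.59 against 10.48 to 10.62. For Rps6 it was 0.856, with 8.29 against 9.69 to 9.92, and for Rps3 it was 0.841, with 14.22 against 14.43 to 14.47. For the large-subunit gene Rpl22 it was 0.949, with 13.67 against 14.02 to 14.04, and for Rpl8, also of the large subunit, 0.847, with 13.77 against 13.95 to 13.98. INV16 replicate 1 was the highest for Rps20, a small-subunit protein, with a gap of 0.917 of the range. Its value was 14.22 against 14.14 on each of the others, a difference of less than 0.1 log2 units.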

How the results depend on the processing

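The count of called members was small under every setting tried, and its few calls moved. For INV16 against MIB control, 1 became 0 with all 12 arrays, quantile normalisation, the dimmest probe set, 2 groups only and within batch A, and 0 to 1 when single arrays were left out. For the ACD mutant against MIB control, 1 became 0 with all 12 arrays or the batch block, 2 with the dimmest probe set (Rpl12 and Rpl37a, the latter reversed at -0.84), and 0 to 2 without single arrays. Between the fusions, 0 became 2 with 2 groups only (Rpl14, adjusted p = 0.0122, and Rps25, 0.0214), and 0 to 1 without single arrays: Rpl14 passed without MIB control replicate 3, 4, 6 or 7.

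Member medians stayed near 0: without single arrays they were -0.0304 to -0.0030, -0.0654 to -0.0049 and -0.0057 to 0.0365 in the same order. They moved to -0.1375 for the ACD mutant against MIB control without _x_at and _s_at probe sets, and to 0.0941 between the fusions with the batch block. The causes were not tested. Counts over all genes moved too, to 20, 0 and 5 with 12 arrays and to 93 (INV16 against MIB control) and 840 (between the fusions) with 2 groups only.

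With the replicate number as a block, 0 members were called for INV16 and 0 for the ACD mutant against MIB control, and 1 between the fusions (Rpl14, adjusted p = 0.0386). Calls over all genes were 1, 24 and 380. Over 5 same-numbered pairs the deviations correlated at -0.332 to 0.0931, and 0 of 3 INV16 and 0 of 3 ACD mutant arrays matched best with their own number. This gave no sign that the numbers pair the arrays. With 3 arrays in each fusion group, and the fusions in different batches, the check cannot exclude pairing. Background signal is not in the table, so what dim probe sets can show is not known.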

Other observations

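Of the 110 probe sets that carry a ribosomal protein symbol together with other symbols, and so belong to no gene here, 70 lay above 13 log2 units. The median level of the 110 was 13.65, and 104 passed the filter. Median differences of these 104 were -0.01 for INV16 against MIB control, -0.01 for the ACD mutant against MIB control and 0.01 between the fusions. The members' own medians were -0.02, -0.05 and 0.02. On INV16 replicate 4 the 104 sets had a median deviation of -0.09. Their single values ran from -0.94 to 0.56 in the ACD mutant against MIB control.

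Member medians per array lay between 13.83 and 13.99 on the 11 arrays and at 13.74 on INV16 replicate 4. The 5 paralogues of ribosomal proteins, Rpl22l1, Rpl39l, Rpl7l1, Rps27l and Rps4l, were all below the other 11 arrays on replicate 4, against 38.8% of all genes. Their median deviation was -1.09, while the median of the 20 other TOP genes was -0.36.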
